A study of Mus musculus with 8 samples.

Results

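Complexes II to V of the respiratory chain were examined in mouse splenic cDC1, the type 1 conventional dendritic cells that present antigen to CD8 T cells. The genes were taken by symbol: the subunit and assembly families Sdh, Uqcr, Uqcc, numbered Cox and Atp5, with Cyc1, Cycs, Atpif1, Atpaf1, Atpaf2, Surf1, Sco1, Sco2, Bcs1l and Ttc19. The array annotation named 71 of them among 19505 named genes, each by 1 probe set, and Sco2 was not matched. By complex there were 8 genes for complex II, 14 for complex III, 1 for cytochrome c, 28 for complex IV and 20 for ATP synthase. Of the 71, 48 were structural (subunits and electron carriers) and 23 served assembly or regulation.

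All cells came from naive wild-type C57BL/6 mice, and the animals' age and sex, and whether animals were pooled, are not given in the sources used here. Sorting gave 4 arrays from cells with a high TMRM/MG signal (TMRM/MG-high, the high arrays) and 4 from cells with a low one (TMRM/MG-low, the low arrays). TMRM stains mitochondria according to their membrane potential, and MG is not spelled out in the labels. Replicate numbers 1 to 4 occur in both fractions and nothing says what they mark, so p-values reflect only how far these samples scatter, and that scatter may be technical. Values are log2 RMA signals, differences are high minus low on the log2 scale with their standard error (SE), and a gene is called at a limma adjusted p under 0.05 over all 22206 probe sets tested.

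The respiratory chain passes electrons from NADH and succinate to oxygen and pumps protons out of the mitochondrial matrix on the way. Complex II (succinate dehydrogenase) feeds electrons from the TCA cycle without pumping, complex III (cytochrome bc1) hands them to cytochrome c, and complex IV (cytochrome c oxidase) reduces oxygen. Complex V (ATP synthase) lets the protons back through a rotor to make ATP. Assembly factors insert hemes, copper and iron-sulfur clusters and join the subunits. The genes studied here are all nuclear, and the subunits encoded by mitochondrial DNA were not analysed here.

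A minority of the genes of complexes II to V passed the test, nearly all of them higher in the TMRM/MG-high fraction and by modest amounts. Of the 71 genes 15 rose and 1 fell, which is 22.5% called against a background of 8.25% of all probe sets (5.28% higher and 2.96% lower). The median difference of the 71 was 0.21, against 0.012 over all named genes. The 4 high arrays lay above all 4 low arrays in 30 of the 71 and below them in 1, against 9.7% and 6.37% of all probe sets. The rises ran from 0.28 in Cox5a to 0.55 in Cox18 and Atp5o, or 1.21-fold to 1.47-fold. The single fall, in the complex III assembly gene Uqcc1, was larger than any rise (-0.78, 1.72-fold lower).

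**Figure D1:**
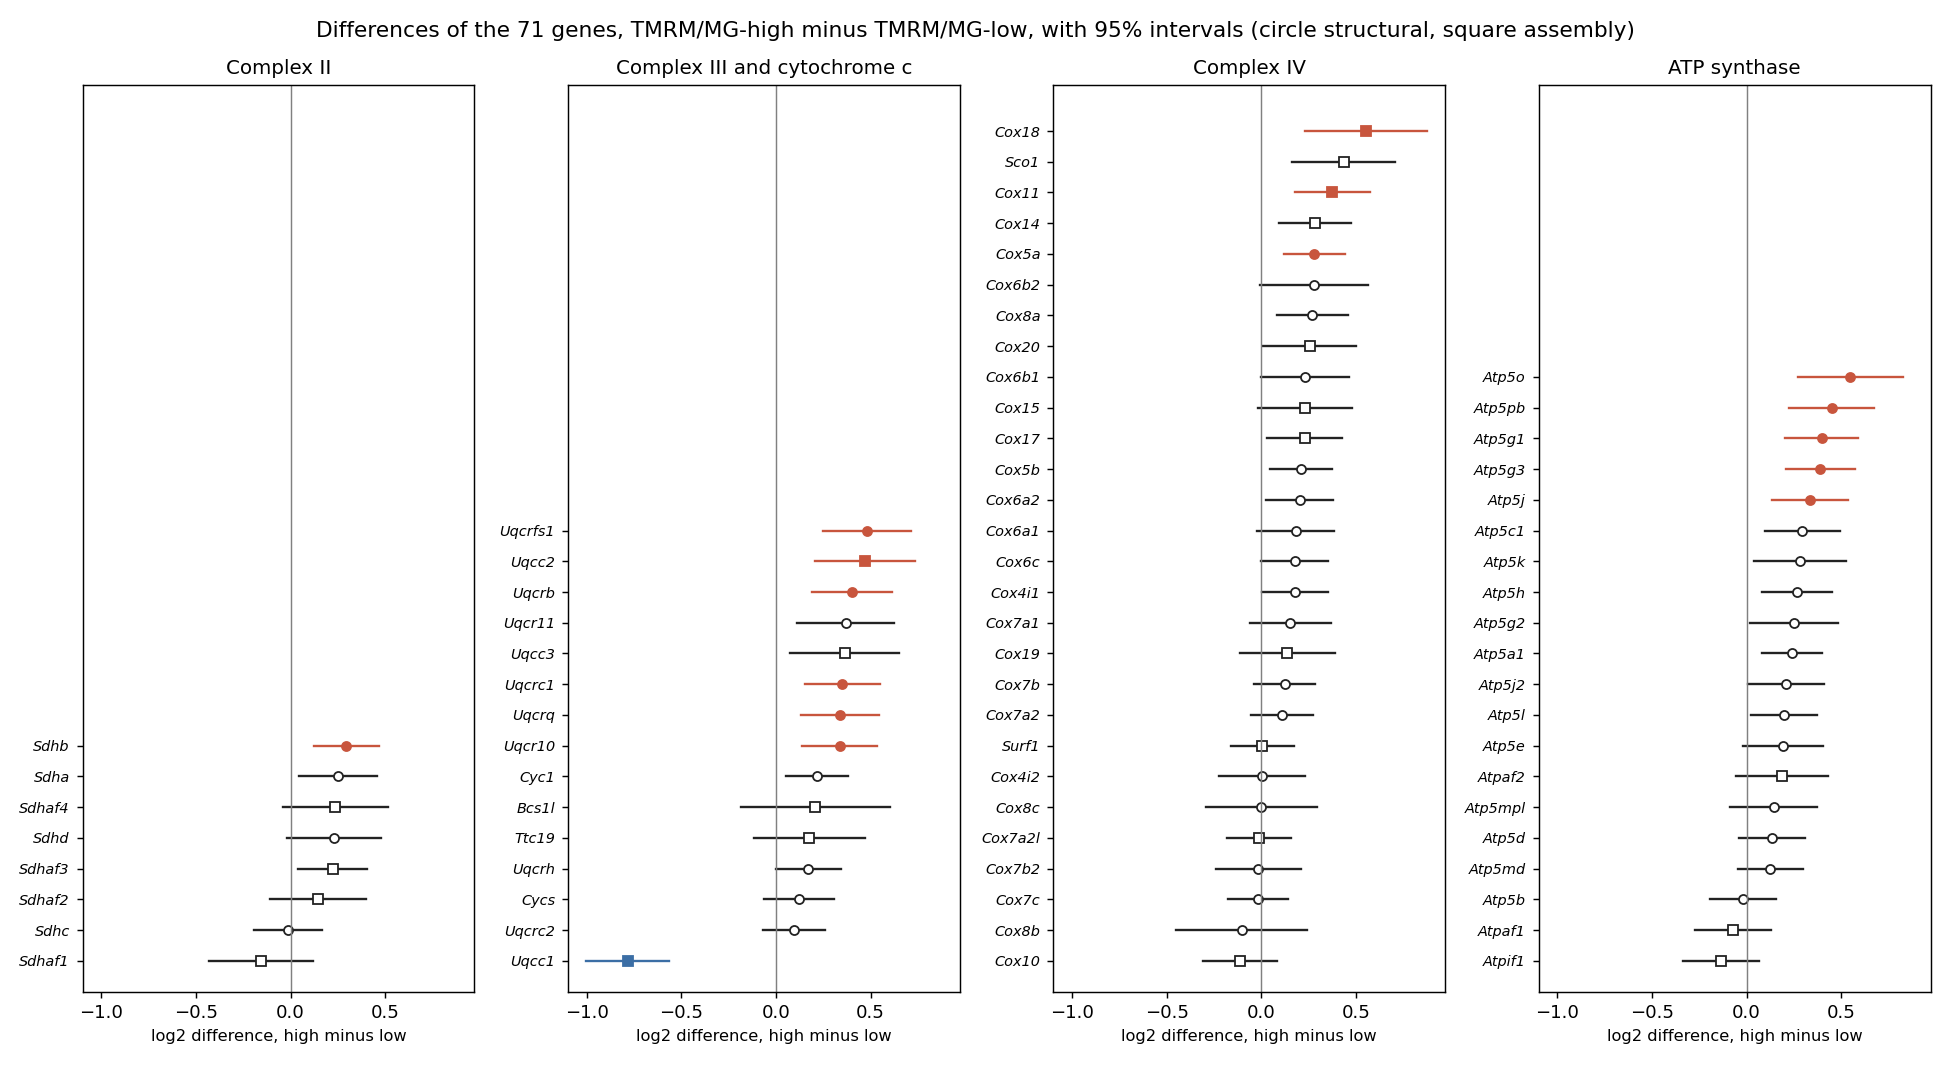
Log2 difference (x axis, high minus low, limma estimate with its 95% interval) of each of the 71 genes, in 1 panel per complex; filled red marks are genes called higher, filled blue called lower, open marks not called, circles structural and squares assembly genes. Complex III has 6 red marks and the only blue one (Uqcc1 at -0.78), while complex IV, with 28 genes, has 3 red marks; after quantile normalization again Cox4i2 and Cox7b2, both near 0, change sign, as does Cox4i2 after centring on array medians.

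The number of rises depended on single arrays. Without low replicate 1, high replicate 2 or high replicate 3 limma called 0 of the 71 higher, with 29, 26 and 29 higher at an unadjusted p under 0.05. Without low replicate 2, low replicate 4 or high replicate 4 it called 3, 2 and 1. It called 19 without low replicate 3 and 15 without high replicate 1. The median difference of the 71 moved less, between 0.17 and 0.25 over the 8 omissions. Each of the 15 rises lost its call in 5 to 7 of them. Uqcc1 was called lower in all 8.

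Scaling changed the counts as well. Another quantile normalization, over the tested probe sets, gave 8 rises and 1 fall, a median of 0.16 and 58 of 71 genes above 0, against 59 before, and it changed the calls over all probe sets from 1173 higher and 658 lower to 852 and 858. Centring on array medians gave 10 rises and 1 fall, with 57 of 71 above 0. Differences also depended on signal strength over all genes, so the 71 are set beside genes of like signal. Among the 3414 other named genes with a mean signal from 10 to 12 the median difference was 0.11 and 13.7% were called higher, and of the 30 genes of complexes II to V in that range 11 rose, with a median of 0.27. From 12 upward the medians were 0.087 for 480 other genes and 0.17 for 18 of the 71, and 3.12% and 2 genes were called higher. From 8 to 10 they were 0.025 for 6511 other genes and 0.17 for 18 of the 71, with 7.37% and 2 genes called higher. Under 8 the medians were -0.022 for 9029 other genes and 0.19 for 5 of the 71, with 1.15% and 0 genes called higher. Across the 71 genes signal and difference were hardly related (Spearman's rho 0.016, Pearson's r 0.074, genes that share arrays and are not independent replicates).

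Some arrays stood high or low for many genes at once. The mean of the 71 was 10.42, 10.55, 10.60 and 10.49 on low replicates 1 to 4 and 10.63, 10.77, 10.73 and 10.71 on high replicates 1 to 4. High replicate 1 lay closest to the low arrays and was the lowest high array for 45 of the 71 genes, while low replicate 3 was the highest low array for 37. Low replicate 1 was the lowest of all 8 arrays for 41 genes. The spike-in controls added to the samples ran the other way between the fractions: the mean of the 8 was 10.14, 10.23, 9.79 and 9.83 on the low and 9.43, 8.97, 8.88 and 8.96 on the high arrays. That mean pools unlike controls, with differences from -0.33 for cre to -2.25 for dap. The lys (6.30 low, 5.84 high) and phe (6.27 low, 5.62 high) controls lay below the negative control medians. The median of the exon controls was 10.28 ± 0.068 on low and 10.44 ± 0.051 on high arrays (SD, n = 4), a difference of 0.16. With the spike-in mean as a covariate, whose values in the fractions do not overlap, limma called 0 of the 71 in either direction (1 higher and 2 lower at an unadjusted p under 0.05) and 0 of all probe sets (472 higher and 568 lower unadjusted), and the median difference of the 71 was 0.038. Their part in the differences was not tested further. As the covariate separates the fractions completely, a call lost or a sign turned with it cannot be read as a reversal.

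**Figure D2:**
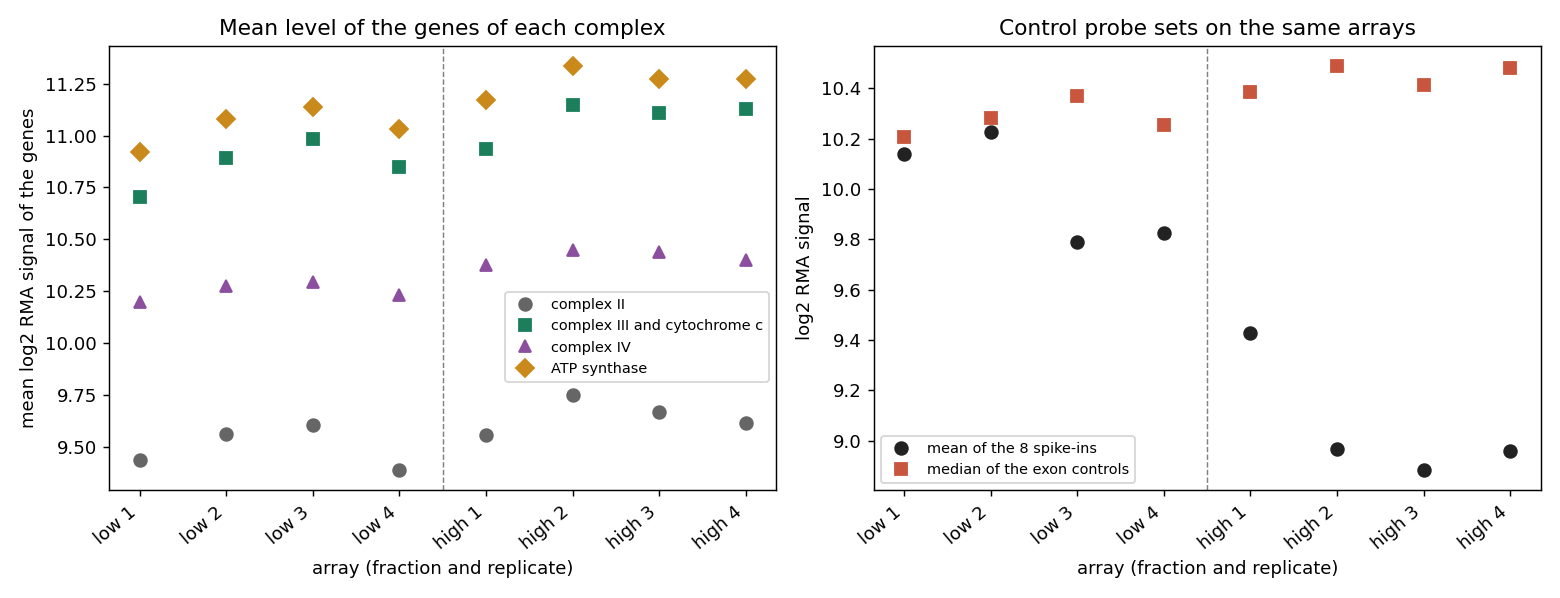
Left, mean log2 RMA signal of the genes of each complex on each of the 8 arrays (low replicates 1 to 4, then high replicates 1 to 4); right, the mean of the 8 spike-ins and the median of the exon controls on the same arrays. Each complex is highest on high replicate 2; complex II is lowest on low replicate 4 and the others on low replicate 1, and high replicate 1 lies below low replicate 3 in complexes II and III but above every low array in complex IV and ATP synthase, while the spike-ins run from 9.79 to 10.23 on the low arrays and from 8.88 to 9.43 on the high arrays.

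Markers of the labelled cell type were present in both fractions. Xcr1 (12.51 low and 12.65 high), Clec9a (11.99 and 11.78), Irf8 (12.56 and 12.39) and Batf3 (11.70 and 11.91) were far above the negative control medians (6.75 for low, 6.86 for high). Of 9 cDC1 markers 0 were called (2 higher and 1 lower at an unadjusted p under 0.05). The lower marker, Clec9a, was called lower by limma after quantile normalization again (-0.29, adjusted p = 0.0398). Markers of other cells differed between the fractions, where 5.28% of all probe sets were called higher and 2.96% lower. Of 9 plasmacytoid dendritic cell markers 8 rose and 0 fell, and their summed log2 level was 82.9 to 84.6 on low arrays against 90.2 to 93.9 on high ones. Of 7 T and NK cell markers 3 fell and 0 rose (64.4 to 71.3 low and 61.5 to 66.1 high). All 7 were below 0, and 6 were lower at an unadjusted p under 0.05. Of 5 neutrophil and monocyte markers 1 fell and 0 rose (48.2 to 51.5 low and 43.5 to 48.3 high). All 5 were below 0, and 3 were lower at an unadjusted p under 0.05. The B cell, red pulp macrophage, erythroid and cDC2 lists had 0 of 4, 6, 2 and 7 called, with 0, 0, 0 and 2 at an unadjusted p under 0.05. In 0 of these 8 lists did a marker lie below the negative control median in both fractions. That does not show that each marker was detected. The 95th percentile of the negative controls was 9.92, and Clec4a4 of the cDC2 list, for example, read 7.34 low and 7.30 high. Their part in the respiratory chain differences was not tested, and in sorted bulk cells a change in the share of a cell type cannot be told apart from a change in RNA per cell.

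In complex III 6 of 14 genes rose (42.9%, against 5.28% of all probe sets) and 1 fell, with a median difference of 0.34. Among other genes 13.7% were called higher at a signal from 10 to 12, where the median signal of complex III (10.88) lay. With cytochrome c included, the rises of complex III fell to 2 of 15 after quantile normalization again, when ATP synthase had 4 of 20. They ran from 0 to 8 over the 8 omissions, so the complexes have no fixed order. All 9 structural genes of complex III were above 0. In all 9 the high arrays lay entirely above the low arrays, against 9.7% of all probe sets. The strongest was Uqcrfs1, the Rieske iron-sulfur protein that takes electrons from ubiquinol. It read 10.61, 10.75, 11.03 and 10.65 on low replicates 1 to 4 and 11.11, 11.29, 11.38 and 11.18 on the high ones. The gap between the groups was narrow, set by low replicate 3 and high replicate 1, but no arrays overlapped. The difference was 0.48 (SE 0.11, limma adjusted p = 0.0223), and over the 8 omissions it ranged from 0.43 to 0.57 with a highest adjusted p = 0.0738.

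Uqcrb, a small subunit that helps hold the ubiquinone site, followed with 11.58, 11.72, 11.74 and 11.62 on the low and 11.82, 12.11, 12.14 and 12.20 on the high arrays. High replicate 1 was again the lowest high array. The Uqcrb difference was 0.40 (SE 0.098, adjusted p = 0.0304). Uqcrc1, a core protein facing the matrix, read 10.56, 10.49, 10.79 and 10.78 against 10.98, 11.07, 10.99 and 10.99, so its high arrays lay closer together than its low arrays. Its difference was 0.35 (SE 0.091, adjusted p = 0.0374). The small subunits Uqcr10 (0.34, adjusted p = 0.0428) and Uqcrq (0.34, adjusted p = 0.0478) completed the structural rises. After quantile normalization again Uqcrc1, Uqcr10 and Uqcrq were not called (adjusted p = 0.0711, 0.0665 and 0.0853).

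The other 4 subunits of complex III did not pass. Uqcr11 was at 0.37 (adjusted p = 0.0742), cytochrome c1 (Cyc1), which carries electrons to cytochrome c, at 0.22 (adjusted p = 0.0993), the hinge protein gene Uqcrh at 0.17 and Uqcrc2, the partner of Uqcrc1 in the core, at 0.097 with a 95% interval from -0.066 to 0.26. Cycs, the mobile cytochrome c itself, differed by 0.12 (95% interval -0.063 to 0.31, adjusted p = 0.403), and its arrays overlapped.

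The Uqcc genes, whose products bind newly made cytochrome b so that complex III can be built on it, differed among themselves. Uqcc1 fell: its low arrays read 11.20, 11.06, 10.94 and 10.97 and its high arrays 10.01, 10.39, 10.29 and 10.34. Every high array lay below every low array. The difference of -0.78 (SE 0.10, adjusted p = 0.0027) stayed between -0.83 and -0.70 over the 8 omissions, with a highest adjusted p = 0.0127. With the spike-in covariate it was -0.94 (SE 0.26) and not called. Uqcc2, whose product works in a complex with that of Uqcc1, rose: 9.82, 10.26, 10.31 and 10.35 on the low arrays and 10.47, 10.70, 10.66 and 10.77 on the high arrays. Its low spread came mainly from low replicate 1. The Uqcc2 difference was 0.47 (SE 0.12, adjusted p = 0.0372, highest adjusted p on omission 0.101). It was not called after quantile normalization again (0.39, adjusted p = 0.0518) and turned to -0.017, not called, with the spike-in covariate. Uqcc3, a further cytochrome b assembly factor, was at 0.36 (adjusted p = 0.11). Bcs1l, the ATPase that inserts the Rieske protein, was at 0.21 (adjusted p = 0.516), and Ttc19, which clears fragments of it, at 0.18 (adjusted p = 0.451).

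**Figure D3:**
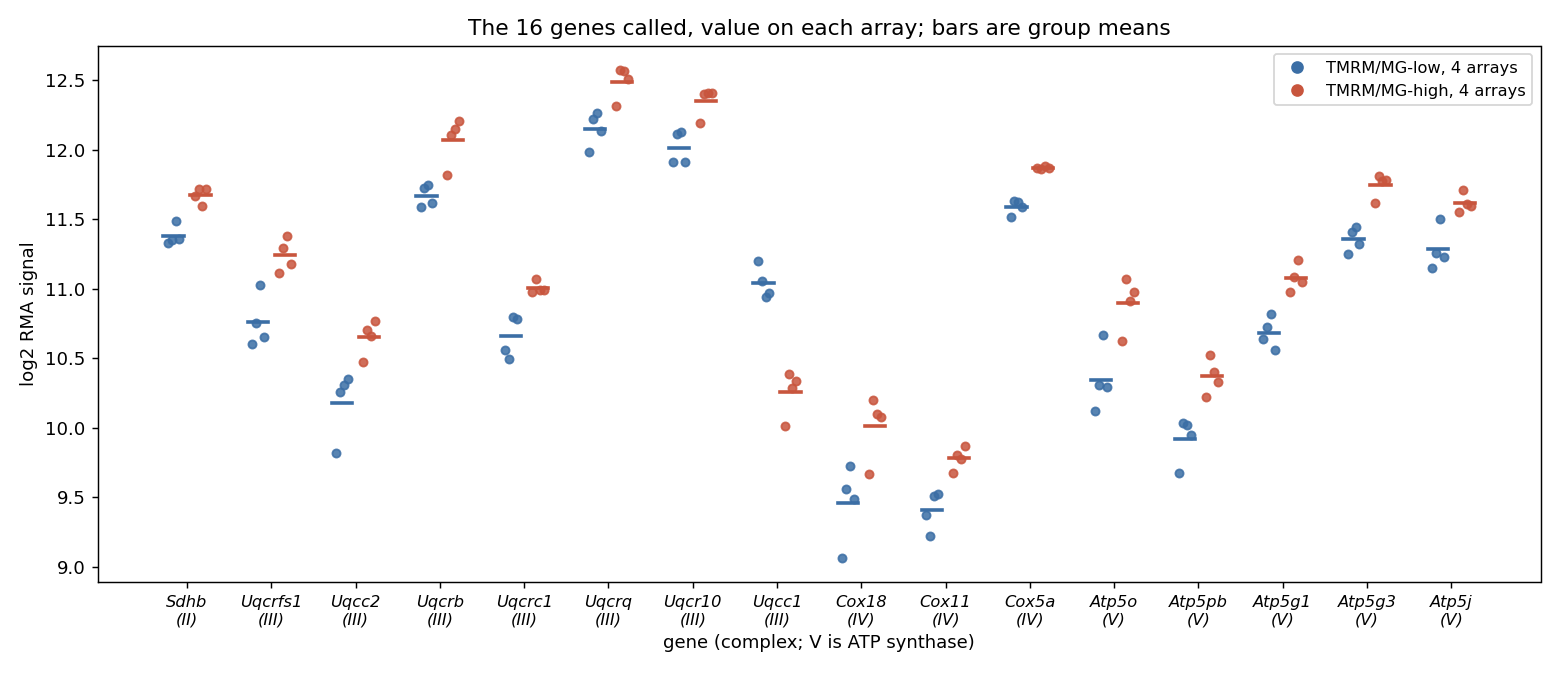
Log2 RMA signal (y axis) of the 16 called genes on each array, blue for the 4 TMRM/MG-low and red for the 4 TMRM/MG-high arrays, with bars at the group means and the complex in brackets. Uqcc1 is the only gene with red below blue (11.04 low and 10.26 high), and in Cox18 and Atp5o 1 red point lies within the range of the blue ones.

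Start site regions of called genes are shown to let the letters of the motif matches be seen. Of the 71 genes, 57 matched RefSeq's promoter table (GRCm38.p6), and windows of 280 bases, 250 before and 30 from the start site on, were searched on both strands for 3 motifs. The NRF1 consensus motif, bound by a regulator of nuclear genes for mitochondria, was in 14 of the 57 (24.6%), in 7.32% of the 15691 array genes with a window and in 4.41% of all 32851 windows. The ETS motif CCGGAAG, which GABPA binds, was in 22 of 57 (38.6%), against 12.7% of array genes and 8.45% of all windows. The YY1 motif AAGATGGCG was in 3 of 57 (5.26%), against 1.58% and 1.05%. Between called and uncalled genes the shares went different ways: NRF1 was in 4 of 12 rising genes and 10 of 44 uncalled ones, ETS in 2 of 12 and 20 of 44. No test was made of these shares, and a match is not a bound site.

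The 4 rising genes with an NRF1 match and Uqcc1, which had none of the 3 motifs in its window, are printed 5′ to 3′ along the gene, with the NRF1 matches in capitals. Their places are chr2:73911297-73911576 (minus strand) for Atp5g3, chr16:91931601-91931880 (minus) for Atp5o, chr9:108936398-108936677 (plus) for Uqcrc1, chr17:27133862-27134141 (minus) for Uqcc2 and chr2:155930281-155930560 (minus) for Uqcc1.
Atp5g3: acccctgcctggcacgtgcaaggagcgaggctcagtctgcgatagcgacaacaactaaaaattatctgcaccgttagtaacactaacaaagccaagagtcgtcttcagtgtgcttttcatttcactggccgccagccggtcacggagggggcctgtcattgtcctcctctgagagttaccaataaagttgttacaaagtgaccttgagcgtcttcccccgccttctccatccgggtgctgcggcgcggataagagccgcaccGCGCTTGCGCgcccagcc
Atp5o: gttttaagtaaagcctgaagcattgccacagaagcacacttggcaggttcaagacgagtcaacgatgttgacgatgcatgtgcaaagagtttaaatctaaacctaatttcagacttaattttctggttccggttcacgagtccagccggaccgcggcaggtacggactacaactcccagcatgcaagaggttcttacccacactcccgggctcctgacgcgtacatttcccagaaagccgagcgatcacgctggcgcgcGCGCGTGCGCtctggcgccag
Uqcrc1: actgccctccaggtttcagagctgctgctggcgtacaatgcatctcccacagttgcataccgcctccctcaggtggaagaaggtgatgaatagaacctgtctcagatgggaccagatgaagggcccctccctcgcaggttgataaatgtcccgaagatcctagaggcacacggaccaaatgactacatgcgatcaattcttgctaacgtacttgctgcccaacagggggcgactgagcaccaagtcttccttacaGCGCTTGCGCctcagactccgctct
Uqcc2: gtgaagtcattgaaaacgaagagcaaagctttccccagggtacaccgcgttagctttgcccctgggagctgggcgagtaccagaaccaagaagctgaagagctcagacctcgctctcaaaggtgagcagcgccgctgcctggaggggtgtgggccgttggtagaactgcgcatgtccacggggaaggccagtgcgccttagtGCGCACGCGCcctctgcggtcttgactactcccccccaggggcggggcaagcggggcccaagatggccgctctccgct
Uqcc1: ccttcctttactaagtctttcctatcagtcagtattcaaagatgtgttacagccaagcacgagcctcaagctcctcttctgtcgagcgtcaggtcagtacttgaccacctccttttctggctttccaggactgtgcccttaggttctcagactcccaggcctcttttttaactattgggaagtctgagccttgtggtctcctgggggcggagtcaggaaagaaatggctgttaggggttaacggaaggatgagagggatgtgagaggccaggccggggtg
In Atp5g3, Atp5o and Uqcrc1 the match began at base 13, 10 and 6 of the transcript, and in Uqcc2 it began 48 bases before the start site. The Uqcc1 window is no exception in holding none of the 3 motifs, since 6 of the 12 rising genes with a window (Atp5g1, Atp5pb, Cox11, Cox5a, Uqcr10 and Uqcrfs1) held none either. An absent match says nothing of the factors.

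ATP synthase had 5 of 20 genes rising and 0 falling, with a median difference of 0.22. The 25% rising compares with 5.28% of all probe sets and 13.7% of the other genes with a signal from 10 to 12. The rises were in the peripheral stalk, which keeps the catalytic head from turning with the rotor, and in the c ring, the rotor through which protons pass. In the stalk 3 of 4 genes rose. Atp5o, the OSCP subunit that ties the stalk to the head, read 10.12, 10.31, 10.67 and 10.29 on the low and 10.62, 11.07, 10.91 and 10.98 on the high arrays. Low replicate 3 exceeded high replicate 1, so the groups overlapped. The Atp5o difference was 0.55 (SE 0.13, adjusted p = 0.0267), from 0.47 to 0.66 on omission, with a highest adjusted p = 0.0838. Once the spike-in mean was a covariate, a fit that called 0 of all probe sets, the Atp5o difference turned to -0.089 and was not called.

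Atp5pb, the b subunit that spans the membrane, read 9.67, 10.04, 10.02 and 9.95 against 10.22, 10.52, 10.40 and 10.33. Its groups did not overlap, and low replicate 1 was the lowest array. The difference was 0.45 (SE 0.10, adjusted p = 0.0257). Atp5j, coupling factor 6, differed by 0.33 (SE 0.092, adjusted p = 0.0471) and was not called after quantile normalization again (adjusted p = 0.073). Atp5h, the d subunit, was at 0.26 (adjusted p = 0.0762) with no overlap of the arrays.

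The c ring genes Atp5g1, Atp5g2 and Atp5g3 encode the same mature protein with different import presequences. Atp5g1 read 10.64, 10.72, 10.82 and 10.56 on the low and 10.98, 11.08, 11.21 and 11.05 on the high arrays, a difference of 0.40 (SE 0.088, adjusted p = 0.0228). Atp5g3 read 11.25, 11.41, 11.44 and 11.32 against 11.62, 11.81, 11.78 and 11.78, a difference of 0.39 (SE 0.084, adjusted p = 0.0202). Both were free of overlap. Atp5g2 read 10.19, 10.60, 10.62 and 10.46 against 10.57, 10.81, 10.76 and 10.73, overlapped, and did not pass (0.25, 95% interval 0.019 to 0.48, adjusted p = 0.165). Whether Atp5g2 differs from the others was not tested.

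The catalytic F1 head, where ATP is made, had 0 of 5 genes called and 2 higher at an unadjusted p under 0.05. Its alpha subunit gene Atp5a1 read 12.52, 12.52, 12.57 and 12.54 against 12.74, 12.76, 12.85 and 12.76. These groups lay apart, yet the difference of 0.24 missed the threshold (SE 0.074, adjusted p = 0.0665). The beta subunit gene Atp5b, partner of alpha in the head, differed by -0.018 (95% interval -0.19 to 0.16, adjusted p = 0.918), with 13.09, 13.01, 12.99 and 12.95 on the low and 13.10, 12.96, 13.02 and 12.89 on the high arrays. The Atp5b arrays of both fractions covered the same range. Atp5c1, the central shaft, was at 0.29 (adjusted p = 0.0654), Atp5e at 0.19 and Atp5d at 0.14. Of the 5 membrane accessory genes 0 were called, with 3 higher at an unadjusted p under 0.05, and they ran from 0.13 in Atp5md to 0.28 in Atp5k.

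Factors around the enzyme did not pass. Atpif1, the inhibitor that stops ATP synthase from running backwards and burning ATP, was at -0.13 (95% interval -0.33 to 0.066, adjusted p = 0.396), with 12.66, 12.71, 12.76 and 12.88 on the low and 12.45, 12.68, 12.76 and 12.59 on the high arrays. Those ranges overlapped. The F1 chaperone genes Atpaf1 and Atpaf2 were at -0.072 (adjusted p = 0.676) and 0.19 (adjusted p = 0.321).

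Complex IV had 3 of 28 genes rising and 0 falling, with a median difference of 0.18. That is 10.7%, against 5.28% of all probe sets. Among other genes 13.7% were called higher at a signal from 10 to 12, where the median signal of complex IV (10.05) lay. From 8 to 10 this was 7.37%, and from 12 upward 3.12%. The complex IV genes ran from 6.07 (Cox7b2) to 13.53 (Cox7c) on the high arrays, so no single range stands for them. Of the 17 structural genes of complex IV 1 rose. This was Cox5a, a matrix-side subunit, which read 11.52, 11.63, 11.62 and 11.59 on the low and 11.87, 11.86, 11.88 and 11.86 on the high arrays. The high arrays hardly differed from each other, and no arrays overlapped. The Cox5a difference was 0.28 (SE 0.074, adjusted p = 0.0389), between 0.26 and 0.29 on omission with a highest adjusted p = 0.105, and it was not called after quantile normalization again (adjusted p = 0.106). Cox5b, the zinc-binding subunit, was at 0.21 (adjusted p = 0.107), Cox8a at 0.27 (adjusted p = 0.0742) and Cox7c at -0.017 (adjusted p = 0.913).

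Several subunits have a widely expressed gene and 1 or more restricted to muscle, lung, testis or brain. Of the 7 restricted genes (Cox4i2, Cox6a2, Cox6b2, Cox7a1, Cox7b2, Cox8b, Cox8c) 0 were called, 1 was higher at an unadjusted p under 0.05, and the median difference was 0.0052. Cox8b and Cox7b2 lay below the negative control median in both fractions. Each of the restricted genes had its mean in both fractions below the 95th percentile of the negative controls (9.92). The same held for some genes that were called, such as Cox11 (9.41 low and 9.78 high). Whether a low signal had a part in the small differences of the restricted genes was not tested. Of the 10 widely expressed subunits 1 was called, with a median of 0.18. Cox4i1, the common form of subunit 4, was at 0.18 (adjusted p = 0.193), and Cox4i2, its hypoxia and lung form, at 0.0052 (95% interval -0.22 to 0.23), with a sign that turned after quantile normalization again (-0.0022) and after centring on array medians (-0.0085). Cox6a1 was at 0.18 (adjusted p = 0.248). Cox6a2, the heart and muscle form that is also used as a marker of plasmacytoid dendritic cells, read 9.63, 9.48, 9.46 and 9.51 on the low and 9.84, 9.68, 9.66 and 9.72 on the high arrays. Its groups did not overlap, and the difference was 0.20 (95% interval 0.026 to 0.38, adjusted p = 0.144).

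Of the other paired forms, Cox6b1 and Cox6b2 were at 0.23 and 0.28 (adjusted p = 0.196 and 0.21), and Cox7b and Cox7b2 at 0.12 and -0.015, the latter turning to 0.0022 after quantile normalization again. Cox7a1 and Cox7a2 were at 0.15 and 0.11 (adjusted p = 0.362 and 0.4). Cox7a2l, a relative that joins complexes III and IV into supercomplexes, was at -0.01 (95% interval -0.18 to 0.16). Cox8b was at -0.10 and Cox8c at -7e-04, with intervals from -0.45 to 0.24 and from -0.29 to 0.29. Differences between paired forms were not tested.

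**Figure D4:**
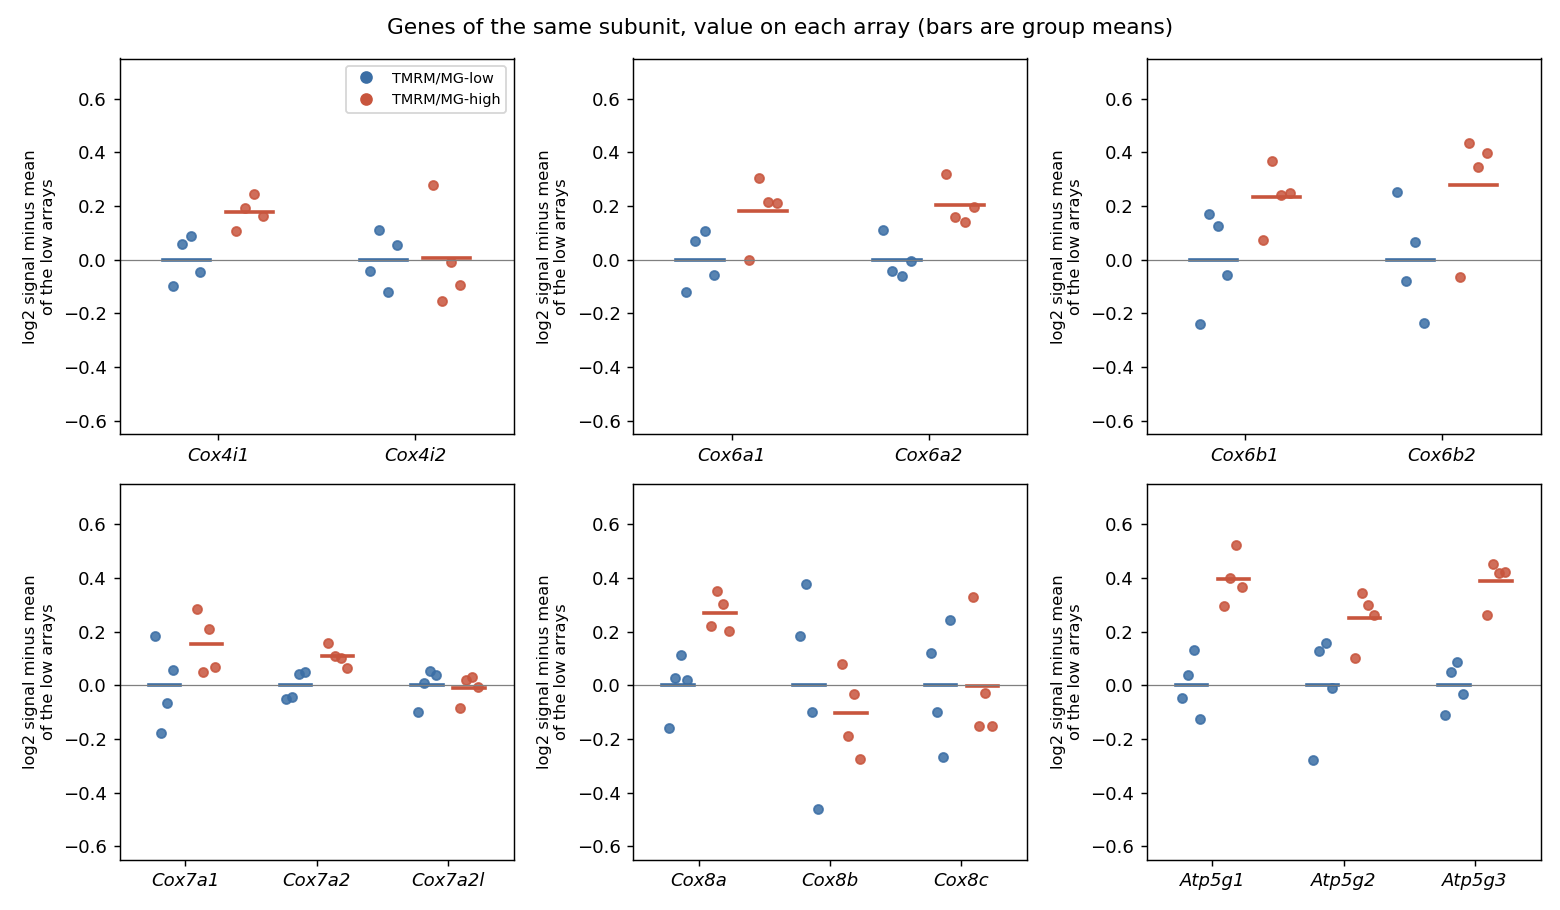
Log2 RMA signal on each array minus the mean of the 4 low arrays of that gene (y axis), for subunits with several genes, blue for TMRM/MG-low and red for TMRM/MG-high, bars at group means. Atp5g1 and Atp5g3 are the genes here that were called, at 0.40 and 0.39; Cox4i2, Cox7a2l, Cox8b and Cox8c have overlapping points around 0, and the sign of Cox4i2 turns after quantile normalization again and after centring.

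Complex IV assembly genes had 2 of 11 rising (18.2%, against 5.28% of all probe sets). Their median signal was 9.97, and among other genes 7.37% were called higher from 8 to 10 and 13.7% from 10 to 12. With 2 genes of 11 the count cannot be told from these shares. Cox18, which inserts the tail of the mitochondrially made subunit 2 into the membrane, read 9.07, 9.56, 9.73 and 9.49 on the low and 9.67, 10.20, 10.10 and 10.08 on the high arrays. Low replicate 3 lay above high replicate 1. The Cox18 difference of 0.55 (SE 0.15, adjusted p = 0.0423) ranged from 0.42 to 0.67 on omission, with a highest adjusted p = 0.124, and turned to -0.18 (not called) with the spike-in covariate. Cox11, which delivers copper to subunit 1, read 9.37, 9.23, 9.51 and 9.52 against 9.67, 9.81, 9.78 and 9.87. Its groups did not overlap. The Cox11 difference was 0.38 (SE 0.091, adjusted p = 0.0305) and was -0.014 with the covariate.

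Other copper factors did not pass. Sco1, which passes copper to subunit 2, was at 0.44 with no overlap (adjusted p = 0.0523). Cox17, the copper chaperone that loads Sco1 and Cox11, was at 0.23 (adjusted p = 0.14), and Cox19 at 0.14. The genes of heme A synthesis went apart: Cox15 was at 0.23 (adjusted p = 0.228) and Cox10, which acts before it, at -0.11 (adjusted p = 0.465). Cox14, an early assembly factor for subunit 1, was at 0.28 (adjusted p = 0.0646), Cox20, a chaperone of subunit 2, at 0.25, and Surf1, the gene lost in many cases of Leigh syndrome, at 0.0053 (95% interval -0.16 to 0.17).

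Complex II had 1 of 8 genes rising and 0 falling, with a median difference of 0.23. A single gene of 8 cannot be told from the 5.28% of all probe sets called higher. It was not called after quantile normalization again, after centring or with the replicate block (adjusted p = 0.085, 0.0619 and 0.0693). Sdhb, the iron-sulfur subunit, read 11.33, 11.35, 11.49 and 11.35 on the low and 11.66, 11.71, 11.59 and 11.72 on the high arrays. The groups lay apart. The Sdhb difference was 0.29 (SE 0.078, adjusted p = 0.0414, highest adjusted p on omission 0.118). Sdha, the flavoprotein that oxidises succinate, was at 0.25 (SE 0.095, adjusted p = 0.127) and turned to -0.20 with the spike-in covariate. The membrane anchors Sdhd and Sdhc were at 0.23 (adjusted p = 0.238) and -0.015 (95% interval -0.20 to 0.17). Among the assembly genes, Sdhaf4 was at 0.24, Sdhaf3 at 0.22, Sdhaf2 at 0.15 and Sdhaf1, which serves the clusters of Sdhb, at -0.15 (adjusted p = 0.484).

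Structural and assembly genes had like medians, 0.21 for both. Of the 48 structural genes 12 rose (25%) and 0 fell, 42 were above 0 and 25 had no overlap with the high arrays above. Of the 23 assembly and regulatory genes 3 rose (13%) and 1 fell, 17 were above 0 and 5 were separated in that way. Over all probe sets 5.28% were called higher and 9.7% were separated with the high arrays above. The structural and assembly genes also differed in median signal (11.30 and 9.92) and in median SE (0.090 and 0.11). The part of signal and SE in these counts was not tested. The assembly genes ranged from -0.78 to 0.55, against -0.10 to 0.55 for the structural ones. That lower end was Uqcc1 alone, and the next lowest assembly gene was Sdhaf1 at -0.15. Both medians stayed above 0 over the 8 omissions, at 0.19 to 0.25 for structural and 0.15 to 0.26 for assembly genes. With the spike-in covariate the structural median was 0.078 and the assembly median turned to -0.039. The difference between these classes was not tested.

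Further genes of complexes II to V outside the families above were taken from a list of 34 symbols, of which 27 were measured. Of the 27, 8 rose (29.6%, against 5.28% of all probe sets) and 0 fell, and their median was 0.28. The mitochondrial Hsp70 gene Hspa9, which pulls imported proteins into the matrix and serves iron-sulfur cluster assembly, was at 0.69 (SE 0.12, adjusted p = 0.0092), and kept its call in all 8 omissions. Tmem242, which helps form the c ring, was at 0.58 (SE 0.11, adjusted p = 0.015) and lost its call only without high replicate 2 (adjusted p = 0.0524). Fastkd2 (0.48), which acts on mitochondrial RNA, and the complex IV assembly genes Coa7 (0.44), Higd2a (0.42), Pet100 (0.41) and Cmc1 (0.40) rose too, as did the ferredoxin gene Fdx1 (0.35). Each of these 6 lost its call in at least 4 omissions (highest adjusted p 0.0748 to 0.136). Cmc1 and Fdx1 were not called after quantile normalization again (adjusted p = 0.0562 and 0.0602), and Coa7, Pet100 and Cmc1 turned negative with the spike-in covariate (-0.11, -0.051 and -0.15), not called. Ndufa4, a subunit of complex IV despite its name, was at 0.31 (adjusted p = 0.0641), and Coa4 at -0.35 (adjusted p = 0.0628). Complex I, measured in the same arrays, had 15 of 35 rising (42.9%) and a median of 0.33, close to the 0.34 of complex III. No test was made between complexes.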

How the data were processed

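Gene expression was measured on 8 Affymetrix whole-transcript arrays, 4 per fraction. The deposited values are log2 signals that the authors made with RMA in Affymetrix Expression Console 1.1, per the submitters' processing notes. RMA removes shifts shared by most probe sets, so differences are relative. The arrays' number limits the precision, and detection calls were not used here.

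Of 28846 probe sets, 22206 were tested and the control ones left out. Symbols came from the platform annotation. The fractions were compared two-sided by limma 3.58.1 (lmFit, eBayes; R 4.3.3), without a block, with Benjamini-Hochberg adjustment over all probe sets. The procedure was tested on simulated data. Intervals are 95%, from the moderated SE. The median of the 5222 negative (intron) controls served as background.

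The rule for named genes took every called gene, the catalytic or defining subunits, paralogs of one subunit, the largest differences by complex, the called genes of the further list, and Xcr1, Clec9a, Irf8 and Batf3. All other genes given with values, such as Uqcr11, Sco1, Cox14, Atp5c1, Surf1, Ndufa4 and Coa4, fall outside it, and their selection followed a look at the values. The members and lists were chosen with earlier results of these data known. Alternatives were the replicate block, quantile normalization again, centring, a robust fit with an intensity trend, omission of dim probe sets, averaged probe sets per gene, the spike-in level as a covariate, other thresholds, and leaving out each array. The replicate numbers were not used as pairs. Figures were drawn with matplotlib 3.10.9.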

Additional observations from a re-analysis of the deposited data

Results flagged for a closer look

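In 7 of 118 groups of 4 arrays checked (named genes and mean levels of the complexes), 1 array stood apart from the other 3 by more than 0.829 of the group's range, and chance gives this in about 1 of 20 groups. High replicate 1 was low in Uqcr10 (12.19, others 12.40 to 12.41), Pet100 (9.91, others 10.17 to 10.20) and Batf3 (11.73, others 11.96 to 11.98). Low replicate 3 was high in Sdhb (11.49, others 11.33 to 11.35). Low replicate 4 was low in Irf8 (12.41, others 12.59 to 12.62) and Xcr1 (12.35, others 12.55 to 12.57). High replicate 4 was low in Sdhc (8.996, others 9.12 to 9.14).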

How the results depend on the processing

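Counts are of genes called higher unless stated. At an adjusted p under 0.01 limma called 0 of the 71 higher, and 0 in each complex and class (36 of the 71 had an unadjusted p under 0.05 and were higher), while the fall of Uqcc1 stayed called. At 0.1 it called 23, with 6 for complex IV, 8 for ATP synthase and 5 assembly genes. The replicate block gave 14 (complex II 0, assembly genes 5), and 12 of the 16 calls were kept, without those of Atp5j, Cox5a, Sdhb and Uqcrc1. Over all tested probe sets, deviations of same-numbered arrays correlated at 0.27, 0.055, 0.015 and 0.039 for numbers 1 to 4. All were above 0 but past 0.1 for number 1 alone, and low replicates 1 and 2 correlated best with their own number. Some variable marker genes kept 1 order of replicate numbers in both fractions. Itgae read 9.56, 10.23, 10.36 and 9.38 on the low and 9.46, 9.98, 10.01 and 9.26 on the high arrays. Ncr1 and S100a8 also kept their order, and Cd79a did not. Same-numbered arrays may thus share a source, and the main fit has no block for it. Quantile normalization again gave 8 (complex II 0, complex III and cytochrome c 2, structural genes 6, their median 0.15), and 9 of the 16 calls were kept. With it limma also called the cDC1 marker Clec9a lower (-0.29, adjusted p = 0.0398). Centring gave 0 for complex II and 7 structural genes. Leaving out dim probe sets gave 5 for complex IV and 5 assembly genes. An intensity trend with a robust fit gave 27 (complex IV 10, structural genes 21, assembly genes 6). Averaging probe sets per gene changed none of the counts, since each gene had 1 probe set. With the spike-in covariate every count was 0, the 1 fall included (0 lower), the medians were 0.038 for all, 0.078 for structural and -0.039 for assembly genes, and the cause was not tested. This fit called 0 of all probe sets, so calls lost and signs turned in it cannot be read as reversals. That covariate also turned the sign of Atp5b (0.18), Atp5g2 (-0.069), Atp5o (-0.089), Batf3 (-0.15), Cmc1 (-0.15), Coa7 (-0.11), Cox11 (-0.014), Cox18 (-0.18), Cox6a1 (-0.11), Cox6b1 (-0.0072), Cox6b2 (-0.067), Cox8b (0.72), Cox8c (0.46), Pet100 (-0.051), Sdha (-0.20), Sdhc (0.072) and Uqcc2 (-0.017), none called. Cox4i2 turned after quantile normalization again (-0.0022) and centring (-0.0085), and Cox7b2 after the former (0.0022).

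Leaving out 1 array gave 0 to 19 rises of the 71, and exactly 1 fall each time. Ranges were 0 to 2 for complex II, 0 to 8 for complex III and cytochrome c, 0 to 4 for complex IV, 0 to 5 for ATP synthase, 0 to 13 for structural and 0 to 6 for assembly genes. The medians ranged from 0.17 to 0.25 for all, 0.19 to 0.25 for structural and 0.15 to 0.26 for assembly genes. The sign turned in Atp5b (-0.052 to 0.016), Cox4i2 (-0.086 to 0.058), Cox7a2l (-0.043 to 0.014), Cox7b2 (-0.067 to 0.068), Cox8b (-0.26 to 0.021), Cox8c (-0.11 to 0.081) and Sdhc (-0.036 to 0.033), none called.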
